A study of Mus musculus with 6 samples.

Results

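The genes described here are 53 components of the Wnt pathway, out of 49671 genes counted in 6 RNA sequencing libraries. They were taken by name from a list of ligands, ligand export factors, receptors, secreted antagonists, R-spondins and target genes, which was drawn up with earlier results of these data known. Wnt proteins are secreted, lipid-modified signals. They bind Frizzled receptors together with the co-receptors Lrp5 and Lrp6 to stabilise beta-catenin, or together with Ror and Ryk receptors to act without it. Fibroblasts both send and receive these signals, and in tumours they are a known source of Wnt ligands and of proteins that block them.

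The hosts were C57BL/6J mice carrying Rosa-mTmG, a reporter that labels cells with red Tomato, and with green GFP once the enzyme Cre has acted in them or their ancestors, and Fabp4-Cre, a Cre gene under the promoter of the fatty acid binding protein gene Fabp4. At 8 weeks of age they received FC1199 mouse pancreatic cancer cells in the pancreas, and tumours were taken 4 weeks later, at 12 weeks of age, with no other treatment. Podoplanin-positive cells were sorted into a GFP-positive fraction, labelled as cancer-associated fibroblasts (CAFs) derived from stellate cells, and a Tomato-positive fraction, labelled as CAFs of non-stellate origin. There were 3 libraries of each fraction, all from hosts of the same genotype. The Fabp4 promoter is known to be active also in adipocytes and endothelium, so the colour records past Cre activity and not a cell type by itself.

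Levels are given as CPM, read counts per 1000000 counted reads after scaling between libraries by the trimmed mean of M values (TMM), in the order replicate 1, 2 and 3. Each library held between 33378377 and 42154933 counted reads. Of 10 fibroblast marker genes 6 were higher in GFP and none lower, with a median log2 fold change of 0.48. Their summed levels were 128470 to 143250 CPM in GFP and 62488 to 95431 CPM in Tomato, mostly from Col1a1, Col1a2 and Col3a1. Dcn, Lum, Fap and Pdpn did not pass. Among the 4 that did not pass was Pdpn, the gene of the sorting marker Podoplanin, which averaged 404 ± 35.5 CPM in GFP, against 433 ± 19.6 CPM in Tomato (SD, n = 3, adjusted p = 0.481 by edgeR). Markers of other cells differed between the fractions. Of 8 mesothelial genes 7 were lower in GFP, with summed levels of 154 to 168 CPM in GFP and 1129 to 1526 CPM in Tomato. Most of the GFP sum came from Wt1, which did not pass and averaged 103 CPM in GFP and 106 CPM in Tomato. Msln averaged 8.15 CPM in GFP and 312 CPM in Tomato. All 12 macrophage genes were lower in GFP (149 to 237 CPM, against 1059 to 2661 CPM in Tomato), as were 6 of 10 epithelial genes (117 to 148 CPM, against 579.9 to 703 CPM). Most of that Tomato sum came from the keratin genes Krt7, Krt8, Krt18 and Krt19, while Muc1, Sox9, Cldn4 and Cldn7 did not pass. Of 7 lymphatic endothelial genes 5 were higher in GFP (306 to 483 CPM, against 25.3 to 79.9 CPM in Tomato), with Ccl21a at 0 in every library. Of 12 pan and blood endothelial genes 7 were higher in GFP and 1 lower (176 to 242 CPM, against 112 to 136 CPM). This sum joins genes that went opposite ways. Cldn5 was higher (21.1 CPM in GFP, 2.64 CPM in Tomato), Esam was lower (2.41 and 28.8 CPM) and Kdr did not pass (37.9 and 49.6 CPM). All 5 neutrophil genes tested were lower in GFP (1.67 to 3.30 CPM, against 21.8 to 31.0 CPM in Tomato), of 8 pericyte and smooth muscle genes 2 were higher and 1 lower, and of 3 Schwann cell genes tested 1 was lower. The part that these marker differences, those of the fibroblast genes included, play in the Wnt results below was not tested, and in sorted bulk RNA a difference in the number of cells of a type and a difference in RNA per cell cannot be told apart.

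The secreted antagonist genes Sfrp1 and Sfrp2, the feedback gene Nkd2 and the receptor gene Ror1 were higher in GFP, and the R-spondin gene Rspo1 was lower. Of the 53 genes, 49 had enough reads to be tested, and 10 were higher and 4 were lower in GFP (edgeR quasi-likelihood test, adjusted p under 0.05). That is 20.4% and 8.16% of those tested, where 28.9% of all 15608 genes tested were called, 13.1% as higher and 15.7% as lower. The genes higher in GFP were Wnt10b, Porcn, Fzd2, Fzd8, Lrp6, Ror1, Ror2, Sfrp1, Sfrp2 and Nkd2, and the genes lower in GFP were Wnt2b, Rspo1, Rnf43 and Nkd1. Of these, Wnt10b and Rnf43 had enough reads to be tested only through the fraction where they were higher. The median log2 fold change (GFP over Tomato) was 0.27 over the 49 genes and 0.00 over all genes tested. In 18 of the 49 genes every GFP library lay above every Tomato library and in 5 every GFP library lay below, where 23.4% and 25.2% of all genes tested did so. When the replicate number was kept as a block, 17 of the 49 were higher and 5 lower. Of all 15608 genes, 3137 were higher and 3256 lower with that block. All 14 Wnt calls were among these 22 Wnt genes. The 8 added were Wnt2, Wnt9a, Fzd1, Sfrp4, Rspo3, Lgr4 and Lef1 as higher and Tcf7 as lower. Fzd8, Ror1, Sfrp1, Sfrp2, Nkd2 and Rspo1 kept their calls without any single library and under every other setting at the same threshold. When scaled by library totals alone the median of all genes moved to -0.16. At that scaling 6 of the 49 were called higher and 6 lower, beside 1130 and 3851 of all 15608 genes.

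**Figure D1:**
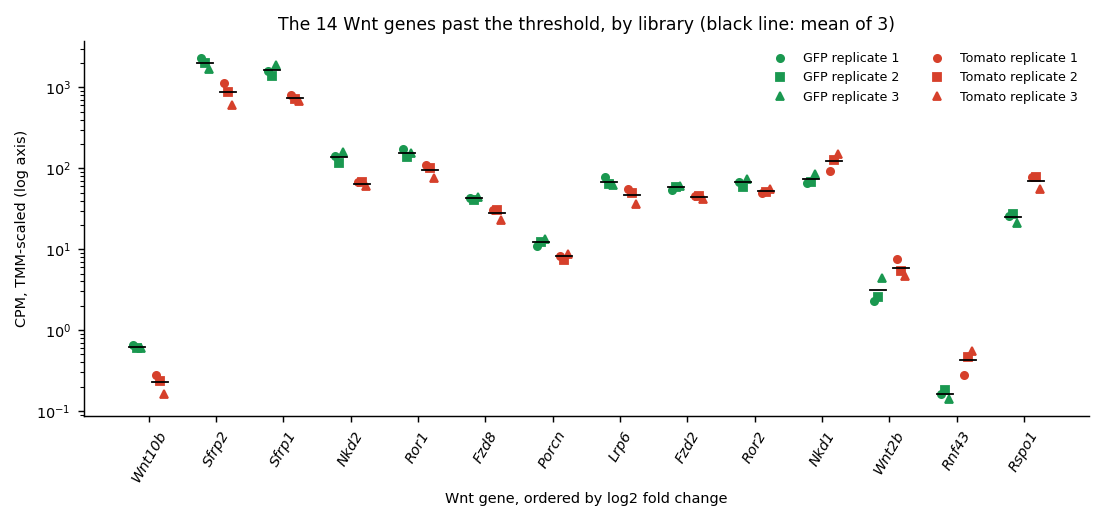
TMM-scaled CPM (log axis) of the 14 Wnt genes past the threshold, ordered by log2 fold change, with GFP libraries in green left of Tomato libraries in red, a symbol for each replicate and a black line at the mean of 3. In each of the 14 genes the fractions do not overlap, and Rspo1 at the right stands at 21.4 to 27.2 CPM in GFP and 56.0 to 78.4 CPM in Tomato.

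Promoter sequence was at hand from RefSeq (build GRCm38.p6) for 35 of the 53 genes. The 250 bases before the start of transcription are shown for Ror1 (chr4:100095541-100095790, + strand), Sfrp2 (chr3:83766071-83766320, + strand), Nkd2 (chr13:73847632-73847881, - strand) and Rspo1 (chr4:124986180-124986429, + strand), whose calls held under all settings at the same threshold. Nkd1 (chr8:88527383-88527632, + strand) is shown as the paralog of Nkd2 that moved the other way. They are written 5′ to 3′ on the strand of the gene, in lower case, with capitals at the letters CTTTGA or their reverse complement TCAAAG. These letters are a form of the core that TCF and LEF factors recognise, and other forms were not counted.
Ror1: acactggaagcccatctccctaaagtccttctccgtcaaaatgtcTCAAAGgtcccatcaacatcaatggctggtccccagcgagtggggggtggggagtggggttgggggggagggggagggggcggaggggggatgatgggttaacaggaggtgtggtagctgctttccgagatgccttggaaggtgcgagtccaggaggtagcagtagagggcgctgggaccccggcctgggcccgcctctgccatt
Sfrp2: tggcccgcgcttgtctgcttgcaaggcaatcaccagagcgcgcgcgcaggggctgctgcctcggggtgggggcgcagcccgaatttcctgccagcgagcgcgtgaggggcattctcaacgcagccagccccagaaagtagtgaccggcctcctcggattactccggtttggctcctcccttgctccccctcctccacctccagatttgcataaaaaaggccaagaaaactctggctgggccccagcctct
Nkd2: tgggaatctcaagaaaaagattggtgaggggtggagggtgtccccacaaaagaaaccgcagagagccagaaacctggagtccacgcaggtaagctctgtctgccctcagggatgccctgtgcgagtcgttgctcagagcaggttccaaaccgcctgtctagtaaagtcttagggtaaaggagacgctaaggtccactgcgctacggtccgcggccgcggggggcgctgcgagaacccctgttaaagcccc
Rspo1: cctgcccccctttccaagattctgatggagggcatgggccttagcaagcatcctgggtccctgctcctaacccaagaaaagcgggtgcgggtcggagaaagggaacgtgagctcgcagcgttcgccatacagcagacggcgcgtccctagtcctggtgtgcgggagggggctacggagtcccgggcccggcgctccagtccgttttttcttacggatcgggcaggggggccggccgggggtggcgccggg
Nkd1: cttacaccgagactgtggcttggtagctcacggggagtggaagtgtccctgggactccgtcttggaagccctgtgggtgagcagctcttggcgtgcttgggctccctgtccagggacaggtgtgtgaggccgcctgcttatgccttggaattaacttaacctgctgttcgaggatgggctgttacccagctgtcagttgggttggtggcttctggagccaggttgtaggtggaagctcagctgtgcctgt
Of these windows the Ror1 promoter alone held the letters searched for, as a TCAAAG that begins 205 bases before the start. CTTTGA was present, on either strand, in 7 of the 35 Wnt genes with a window (20.0%: Dkk1, Frzb, Fzd1, Lef1, Ror1, Wnt11 and Wnt5b) and in 15.8% of all 27025 genes with a window. A gene with several starts was counted where any of its windows held the letters. Lef1, Wnt5b and Wnt11 each had further windows without them, and in Lef1 they stood only at chr3:131156044-131156293, inside the gene. The Rspo1 window had a GC content of 66.8% and 22 CpG dinucleotides, the Nkd2 window 58.4% and 14, and the Nkd1 window 58.4% and 6, where the medians over all windows were 52.4% and 6. The RefSeq start used for Nkd1 lies inside the gene as GENCODE draws it, so another start of that gene may carry other letters.

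The ligands were led by Wnt2 and Wnt4 in both fractions, and only the low genes Wnt10b and Wnt2b passed the test. Per kilobase of exon, Wnt2 stood at 74.7 ± 8.97 CPM per kilobase in GFP and 60.1 ± 4.74 CPM per kilobase in Tomato, and Wnt4 at 42.8 ± 1.96 CPM per kilobase in GFP and 40.3 ± 7.17 CPM per kilobase in Tomato. Together these genes made up 74.3 ± 1.24% (SD, n = 3) of the summed ligand level per kilobase in GFP and 72.6 ± 1.97% in Tomato, and the fractions overlapped. In CPM, Wnt2, a ligand of the beta-catenin branch, had 156, 158 and 192 CPM in GFP, against 128, 131 and 148 CPM in Tomato. Every GFP library was higher than every Tomato library, but the difference did not pass (log2 fold change 0.31, adjusted p = 0.0617). It did pass once the replicate number was blocked on (0.31, adjusted p = 0.0125), without Tomato replicate 3 (0.37, 0.0414), and with offsets for exon length and base composition (0.50, adjusted p = 0.00956). Wnt4, known for its part in kidney and gonad development, had 181, 187 and 171 CPM in GFP, against 136, 175 and 195 CPM in Tomato, and did not pass (0.09, adjusted p = 0.633). Its Tomato libraries spanned the whole GFP range, and its fold change turned negative (-0.09) when scaled by library totals alone.

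Per kilobase, Wnt11 came next at 17.97 ± 3.54 CPM per kilobase in GFP and 15.2 ± 2.14 CPM per kilobase in Tomato, then Wnt9a and Wnt5a. In CPM, Wnt11, a ligand of the branch without beta-catenin, had 62.2, 70.2 and 90.6 CPM in GFP, against 52.6, 66.3 and 69.2 CPM in Tomato. Wnt5a, the best known ligand of that branch and a partner of Ror receptors, had 42.7, 53.4 and 61.6 CPM in GFP, against 50.4, 72.7 and 55.1 CPM in Tomato. Neither passed (adjusted p = 0.262 and 0.457), and in both genes the fractions overlapped. Wnt9a had 38.5, 34.5 and 39.1 CPM in GFP, against 33.8, 28.2 and 28.3 CPM in Tomato, with every GFP library the higher, and just missed the threshold (0.31, adjusted p = 0.0562). It passed with the block (0.31, adjusted p = 0.0203). Wnt5b had 6.13, 5.88 and 6.76 CPM in GFP, against 6.88, 9.23 and 7.95 CPM in Tomato. Its GFP libraries were all lower, without passing (-0.36, adjusted p = 0.106), and it passed when scaled by library totals alone (-0.53, adjusted p = 0.0387).

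Among the ligands of low level, Wnt2b, a close relative of Wnt2, had 2.31, 2.56 and 4.45 CPM in GFP, against 7.58, 5.35 and 4.61 CPM in Tomato. Its log2 fold change was -0.91 ± 0.29 (SE, adjusted p = 0.0449), although GFP replicate 3 nearly reached Tomato replicate 3. That call was lost in 4 of the 6 fits without a single library, namely without GFP replicate 1, GFP replicate 2, Tomato replicate 1 or Tomato replicate 2, where the adjusted p reached 0.144. Wnt10b, a ligand that holds back fat cell formation, was counted at 24, 20 and 21 reads in GFP and 12, 9 and 6 reads in Tomato. It owed its place in the test to its GFP libraries, where it was higher. Its log2 fold change was 1.42 ± 0.34 (SE, adjusted p = 0.0163), and the call was lost without GFP replicate 1, Tomato replicate 2 or Tomato replicate 3 (up to 0.063). It made up 0.114 ± 0.0133% of the summed ligand level in GFP and 0.0488 ± 0.0170% in Tomato. Wnt6 had 2.83, 2.45 and 1.9997 CPM in GFP, against 2.05, 1.57 and 1.60 CPM in Tomato, Wnt7b had 1.56, 0.925 and 2.17 CPM in GFP, against 2.73, 2.08 and 1.95 CPM in Tomato, and Wnt16 had 1.37, 1.19 and 0.929 CPM in GFP, against 1.21, 0.977 and 0.407 CPM in Tomato. These ligand genes overlapped between the fractions and did not pass (adjusted p = 0.143, 0.223 and 0.437).

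Of the genes that make ligands ready for release, the fatty acyl transferase gene Porcn rose and the carrier gene Wls did not pass. Porcn, which attaches the lipid that Wnt proteins need, had 10.9, 12.2 and 13.2 CPM in GFP, against 8.35, 7.41 and 8.68 CPM in Tomato. The fractions did not overlap, and the log2 fold change was 0.57 ± 0.13 (SE, adjusted p = 0.0132). The call was lost when scaled by library totals alone (0.41, adjusted p = 0.0547), and without GFP replicate 3 (0.0537) or Tomato replicate 2 (0.0593). Wls, which carries lipid-modified Wnt to the cell surface, was the more abundant by far per kilobase, with 67.1 ± 1.57 CPM per kilobase in GFP and 64.8 ± 5.34 CPM per kilobase in Tomato. In CPM it had 599.9, 595 and 574 CPM in GFP, against 595, 598 and 515 CPM in Tomato. The libraries lay close together in both fractions (0.05, adjusted p = 0.734).

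**Figure D2:**
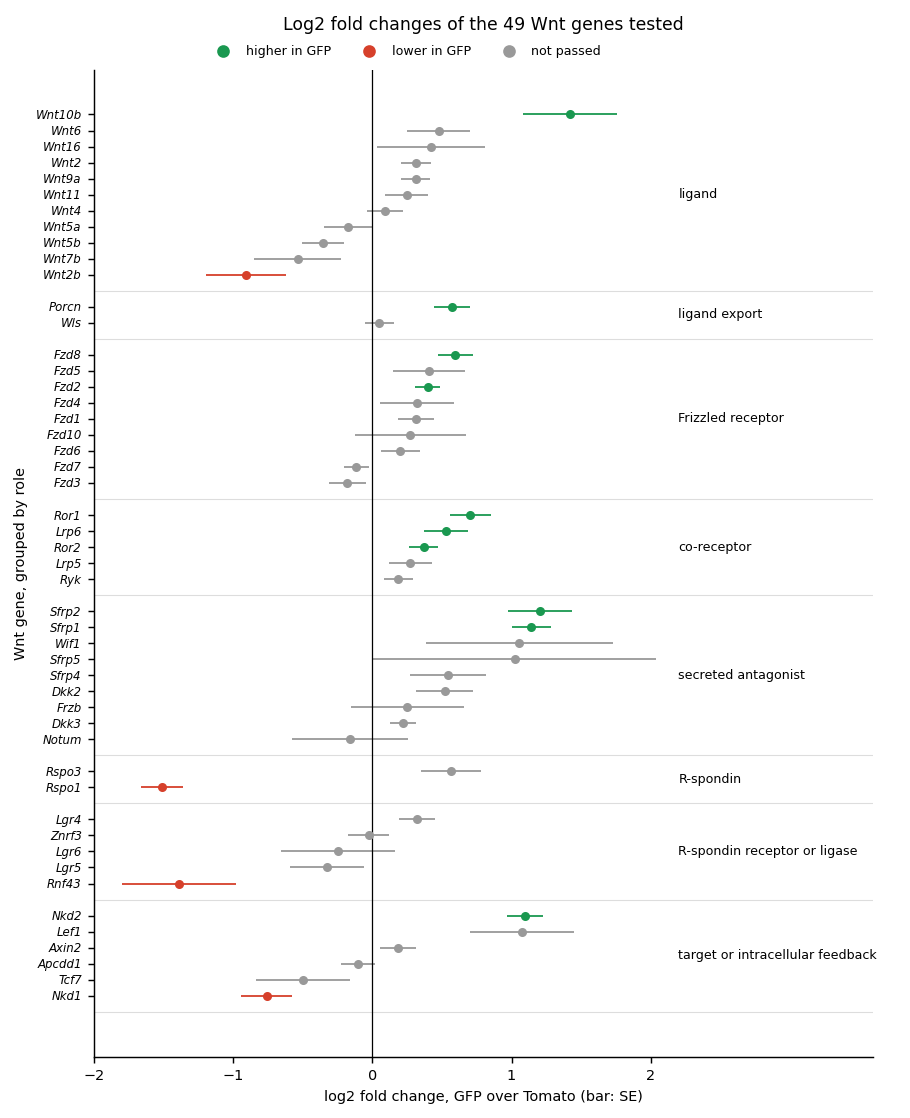
Log2 fold changes (GFP over Tomato, x axis) with their standard errors for the 49 Wnt genes tested, grouped by role down the page, in green where higher in GFP, red where lower and grey where the test was not passed. The co-receptors and most antagonists lie right of 0, while Rspo1, Rnf43, Wnt2b and Nkd1 lie left of it.

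Frizzled receptors, the membrane proteins that bind Wnt, were led by Fzd1 in both fractions. Fzd1 made up 69.2 ± 2.56% of the summed Frizzled level per kilobase in GFP and 69.1 ± 5.47% in Tomato (SD, n = 3). In CPM it had 397, 350.4 and 446 CPM in GFP, against 278, 322 and 361 CPM in Tomato. GFP replicate 2 lay below Tomato replicate 3, and the difference passed only with the block (0.31, adjusted p = 0.0329; without it 0.31, adjusted p = 0.104). Fzd2 had 54.7, 59.6 and 60.7 CPM in GFP, against 45.2, 46.1 and 41.5 CPM in Tomato. The fractions did not overlap, and Fzd2 was higher in GFP by 0.40 ± 0.09 (SE, adjusted p = 0.0134). Without GFP replicate 3 its adjusted p was 0.0538, and when scaled by library totals alone 0.0900 at a log2 fold change of 0.23. Fzd8 had 42.6, 40.4 and 44.2 CPM in GFP, against 30.4, 30.9 and 22.9 CPM in Tomato, and was higher in GFP by 0.59 ± 0.13 (SE, adjusted p = 0.0104), the largest change of the Frizzled genes tested. Every GFP library was higher than every Tomato library.

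The other Frizzled genes did not pass. Fzd4, a receptor also bound by the ligand Norrin in vessels, had 70.4, 57.03 and 52.3 CPM in GFP, against 63.9, 50.7 and 29.4 CPM in Tomato. Tomato replicate 3 was the lowest of all 6 and the other libraries overlapped. Fzd7 had 26.1, 27.1 and 26.6 CPM in GFP, against 30.7, 28.7 and 27.1 CPM in Tomato, with a narrow spread in both fractions. Fzd6 had 12.3, 10.6 and 10.96 CPM in GFP, against 8.39, 11.3 and 9.88 CPM in Tomato, and Fzd3 had 9.93, 7.75 and 10.3 CPM in GFP, against 10.7, 10.8 and 10.3 CPM in Tomato. Fzd6 and Fzd3 are best known for their part in planar cell polarity. Fzd5 had 3.39, 4.47 and 2.73 CPM in GFP, against 3.40, 2.55 and 2.01 CPM in Tomato, and Fzd10 had 1.48, 1.16 and 0.789 CPM in GFP, against 1.26, 1.11 and 0.461 CPM in Tomato. The adjusted p was 0.398 for Fzd4, 0.357 for Fzd7, 0.308 for Fzd6, 0.341 for Fzd3, 0.26 for Fzd5 and 0.63 for Fzd10. Fzd7 passed as lower when scaled by library totals alone (-0.28, adjusted p = 0.0448), and Fzd3 did so with the length and composition offsets (-0.44, adjusted p = 0.0398; 0.0211 with the block as well). Fzd9 had too few reads to be tested, with 6, 12 and 16 reads in GFP and 7, 6 and 8 reads in Tomato.

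The co-receptors were higher in GFP for 3 of 5 genes and lower for none, beside 13.1% and 15.7% of all genes tested. Of these 3 calls only that of Ror1 held without any single library. Ror1 (chromosome 4, 100095791 to 100444765), a receptor tyrosine kinase that responds to Wnt5a, had 173, 139 and 155 CPM in GFP, against 111, 100.5 and 75.4 CPM in Tomato. The lowest GFP library stood above the highest Tomato library, and the log2 fold change was 0.70 ± 0.15 (SE, adjusted p = 0.0103). Its relative Ror2 had 67.6, 59.2 and 74.4 CPM in GFP, against 50.1, 50.4 and 55.4 CPM in Tomato, with a smaller difference of 0.37 ± 0.10 (SE, adjusted p = 0.0316). The Ror2 call was lost in 4 of the 6 fits without a single library (without GFP replicate 1 or 3 or Tomato replicate 1 or 2, up to 0.112), when scaled by library totals alone (0.20, adjusted p = 0.225) and with the length and composition offsets (0.25, 0.0916), though not with those offsets and the block (0.25, 0.0309).

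Lrp6, the co-receptor that recruits Axin when Wnt binds, had 77.4, 63.98 and 61.8 CPM in GFP, against 55.2, 49.2 and 36.4 CPM in Tomato. The fractions did not overlap, and Lrp6 was higher by 0.53 ± 0.16 (SE, adjusted p = 0.0375). It kept that call in 1 of the 6 fits without a single library, that without Tomato replicate 1, and reached an adjusted p of 0.126 in the others. It was at 0.28 (0.115) with the length and composition offsets, 0.29 (0.0254) with the block as well, and 0.37 (0.0687) when scaled by library totals alone. Its partner Lrp5 had 7.64, 6.05 and 6.37 CPM in GFP, against 5.97, 4.91 and 5.73 CPM in Tomato, with the GFP libraries all higher, and did not pass (0.27, adjusted p = 0.212). Ryk, an atypical kinase-like Wnt receptor, had 209.5, 244 and 252 CPM in GFP, against 211, 218 and 191 CPM in Tomato, and did not pass (0.19, adjusted p = 0.203). Per kilobase Ryk was the highest co-receptor gene in both fractions, at 51.9 ± 4.98 CPM per kilobase in GFP and 45.6 ± 3.16 CPM per kilobase in Tomato.

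**Figure D3:**
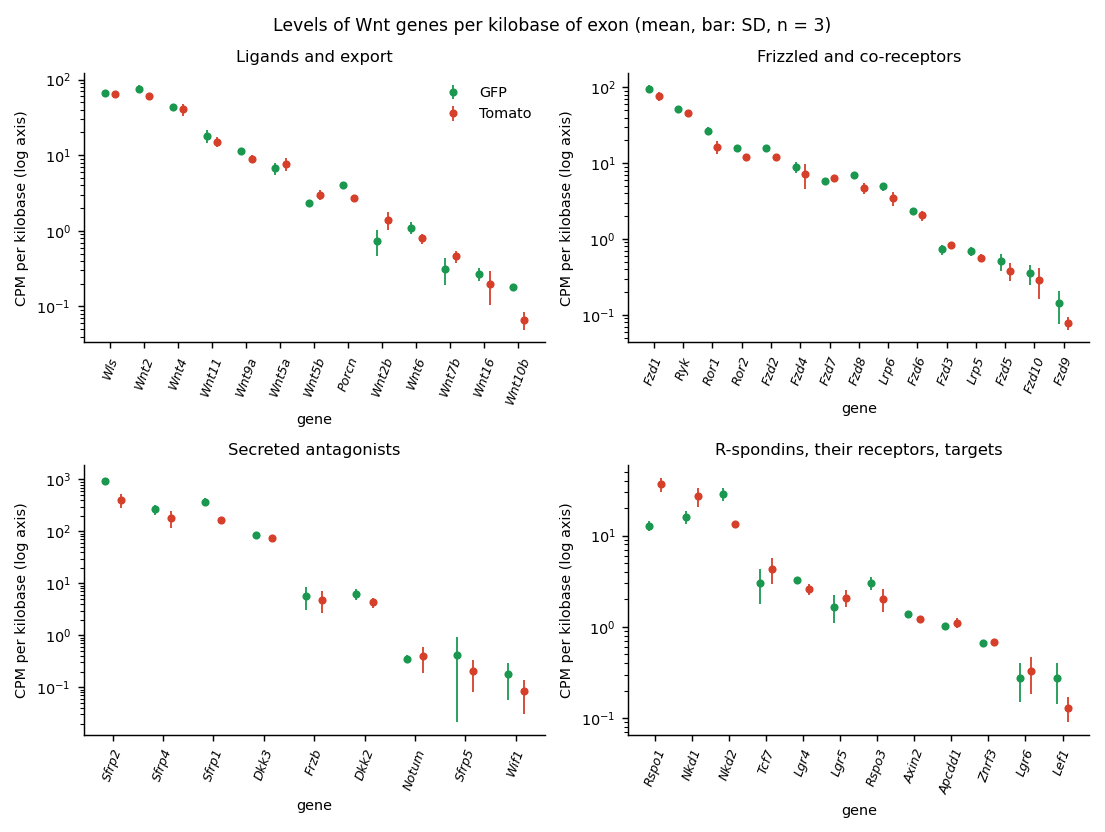
Levels of Wnt genes in CPM per kilobase of merged exons (log axis) in GFP (green, left) and Tomato (red, right), as the mean of 3 libraries with SD bars, in 4 panels by role and ordered by the Tomato level. Genes under 0.1 in both fractions are left out and a lower bar that would reach 0 is shortened. Sfrp2 is the highest gene of the set in both fractions, and Rspo1 is higher in Tomato than in GFP.

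The secreted antagonists held the most abundant Wnt genes of these cells, and Sfrp1 and Sfrp2 rose in GFP. Secreted Frizzled-related proteins carry the Wnt-binding part of a Frizzled without the membrane part, and bind Wnt outside the cell. Sfrp2 (chromosome 3, 83766321 to 83774316) had 2329.5, 2018 and 1695 CPM in GFP, against 1132, 886 and 603 CPM in Tomato. The lowest GFP library was above the highest Tomato library, and the log2 fold change was 1.21 ± 0.23 (SE, adjusted p = 0.0072). Of its exon bases 16.1% are shared with an antisense gene, whose reads cannot be told apart here. Sfrp1 (chromosome 8, 23411502 to 23449632) had 1613, 1387 and 1899.8 CPM in GFP, against 806, 731 and 682 CPM in Tomato. Again there was no overlap, and the difference was 1.14 ± 0.14 (SE, adjusted p = 0.00106). Sfrp4 had 1311, 1204 and 853 CPM in GFP, against 1084, 699 and 531 CPM in Tomato. The fractions overlapped and Sfrp4 did not pass (0.54, adjusted p = 0.168), but GFP was higher than Tomato within each of the 3 pairs of equal replicate number, and it passed with the block (0.58, adjusted p = 0.00563). It also passed without Tomato replicate 1, its highest Tomato library (0.86, adjusted p = 0.0131).

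Per kilobase, Sfrp2 stood at 936 ± 147 CPM per kilobase in GFP and 406 ± 123 CPM per kilobase in Tomato, Sfrp1 at 374 ± 58.7 CPM per kilobase in GFP and 169 ± 14.4 CPM per kilobase in Tomato, and Sfrp4 at 269 ± 57.3 CPM per kilobase in GFP and 185 ± 67.8 CPM per kilobase in Tomato. In Tomato, the mean of Sfrp1 lay within 1 SD of the mean of Sfrp4. Together these genes made up 94.0 ± 0.955% of the summed antagonist level per kilobase in GFP and 89.6 ± 2.58% in Tomato (SD, n = 3). The summed antagonist level per kilobase was 12.5, 10.7 and 8.88 times the summed ligand level in GFP libraries, and 8.41, 5.98 and 4.31 times in Tomato libraries. The fractions did not overlap in this ratio, though GFP replicate 3 and Tomato replicate 1 were close. It too was chosen with the values known and given no test.

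Of the other antagonist genes none passed. Dkk3, the most divergent Dickkopf gene, had 289.7, 280.2 and 301 CPM in GFP, against 239.7, 273 and 236 CPM in Tomato. Its GFP libraries were all higher, without passing (0.22, adjusted p = 0.113), and it passed with the length and composition offsets (0.30, adjusted p = 0.0490; 0.0338 with the block as well). Dkk2, which binds Lrp5 and Lrp6, had 22.3, 17.9 and 29.1 CPM in GFP, against 20.1, 14.6 and 13.6 CPM in Tomato, and did not pass (0.52, adjusted p = 0.0933). It passed without Tomato replicate 1 (0.70, adjusted p = 0.0235), and with the length and composition offsets and the block together (0.60, 0.0453). Frzb, also a Frizzled-related protein gene, had 12.8, 14.3 and 29.1 CPM in GFP, against 10.1, 13.4 and 23.9 CPM in Tomato. In each fraction the library numbered 3 was the highest, and within each of the 3 pairs GFP was above Tomato. It did not pass (0.25, adjusted p = 0.67). With the length and composition offsets and the block it did (0.34, adjusted p = 0.0266), and without GFP replicate 3 its fold change was -0.22.

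Notum, an enzyme that removes the lipid from Wnt, had 0.996, 0.686 and 0.873 CPM in GFP, against 0.443, 1.003 and 1.44 CPM in Tomato, and did not pass (-0.16, adjusted p = 0.788). Its reads are uncertain, since 38.1% of its exon bases are shared with antisense genes. On a single strand column its fold change was 0.34, but that column does not separate antisense reads here. Sfrp5 was counted at 2, 16 and 67 reads in GFP and 5, 21 and 20 reads in Tomato, and Wif1, whose product also binds Wnt outside the cell, at 4, 17 and 24 reads in GFP and 7, 4 and 13 reads in Tomato. Both were below 1 CPM on average and did not pass (adjusted p = 0.474 and 0.26). Dkk1, the best known inhibitor of Lrp6, had no read in any library.

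R-spondins strengthen Wnt signals by binding Lgr receptors and taking the ubiquitin ligases Znrf3 and Rnf43, which remove Frizzled, off the cell surface. Rspo1 (chromosome 4, 124986430 to 125009099) had 25.6, 27.2 and 21.4 CPM in GFP, against 77.6, 78.4 and 56.01 CPM in Tomato. All GFP libraries lay far below all Tomato libraries, and the log2 fold change was -1.51 ± 0.15 (SE, adjusted p = 0.000399), the largest fall among the 49 Wnt genes tested. It lay between -1.66 and -1.42 in the 6 fits without a single library. Mesothelial and macrophage markers were lower in the same GFP libraries, as given above, and their part in the Rspo1 difference was not tested. Rspo3 had 8.15, 10.9 and 8.73 CPM in GFP, against 8.04, 6.20 and 4.53 CPM in Tomato. Every GFP library was higher, without passing (0.56, adjusted p = 0.0801), and with the block it passed (0.58, adjusted p = 0.0338). It passed as well without Tomato replicate 1 (0.78, adjusted p = 0.0171) and without a filter (0.55, 0.0498), and 13.1% of its exon bases are shared with an antisense gene.

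Within each library, the Rspo1 level per kilobase was 5.01, 3.97 and 3.90 times the Rspo3 level in GFP, and 15.4, 20.2 and 19.7 times in Tomato. This ratio was chosen after the values were seen and was given no test. Rspo2 had 0, 0 and 0 reads in GFP and 1, 0 and 0 reads in Tomato, and Rspo4 had 1, 4 and 1 reads in GFP and 0, 1 and 1 reads in Tomato. Neither could be tested.

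Of the receptors and ligases on which R-spondins act, Rnf43 was lower in GFP and the rest did not pass. Rnf43 was counted at 6, 6 and 5 reads in GFP and 12, 18 and 20 reads in Tomato. It owed its place in the test to its Tomato libraries, where it was higher. Its log2 fold change was -1.39 ± 0.41 (SE, adjusted p = 0.0358), but the call was lost in 5 of the 6 fits without a single library, all except that without Tomato replicate 1 (up to 0.113), and by DESeq2 (0.101), limma-voom (0.0507) and without a filter (0.0636). Its relative Znrf3 had 4.98, 5.13 and 5.69 CPM in GFP, against 5.22, 5.94 and 4.94 CPM in Tomato, with nearly equal means (-0.03, adjusted p = 0.903). Lgr4, the most widely expressed Lgr, had 20.9, 18.1 and 18.4 CPM in GFP, against 16.4, 16.6 and 12.8 CPM in Tomato. Every GFP library was higher, without passing (0.32, adjusted p = 0.0947), and it passed with the block (0.33, adjusted p = 0.0362). Lgr5, known as a stem cell marker of the gut, had 18.97, 10.6 and 21.6 CPM in GFP, against 17.1, 21.3 and 25.97 CPM in Tomato. Lgr6 had 1.24, 1.58 and 2.84 CPM in GFP, against 1.21, 2.39 and 3.15 CPM in Tomato. Both overlapped between the fractions and did not pass (adjusted p = 0.375 and 0.67).

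**Figure D4:**
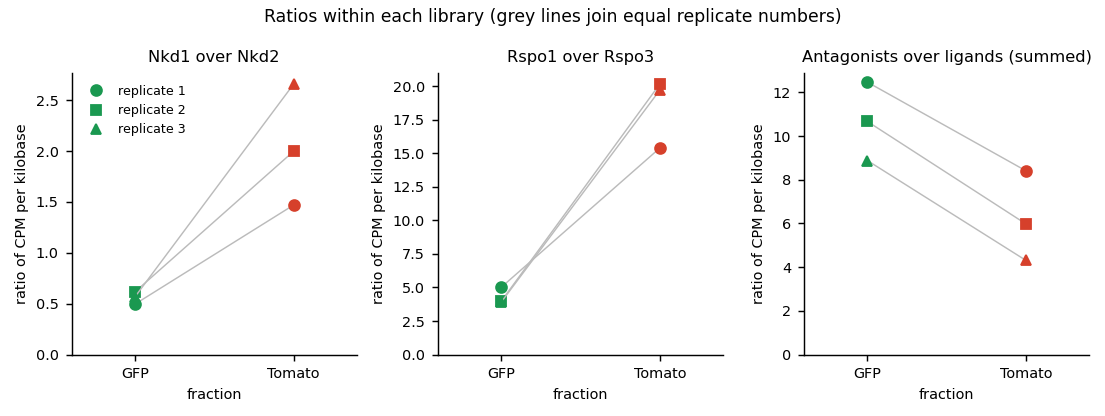
Ratios of CPM per kilobase within each library, on linear axes from 0, for Nkd1 over Nkd2, Rspo1 over Rspo3, and summed antagonists over summed ligands, with GFP left of Tomato and grey lines joining equal replicate numbers. Nkd1 over Nkd2 lies between 0.495 and 0.616 in GFP and between 1.47 and 2.66 in Tomato, and the ratio of antagonists to ligands is higher in GFP in all 3 pairs.

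The intracellular feedback genes Nkd1 and Nkd2 moved in opposite directions. Both encode Naked cuticle proteins, which bind Dishevelled and dampen the signal. Nkd2 (chromosome 13, 73818534 to 73847631) had 140.4, 115 and 160.3 CPM in GFP, against 66.8, 68.1 and 59.7 CPM in Tomato. The lowest GFP library was above the highest Tomato library, with a log2 fold change of 1.10 ± 0.13 (SE, adjusted p = 0.000785). Nkd1 (chromosome 8, 88521354 to 88594884) had 65.7, 67.1 and 85.8 CPM in GFP, against 92.7, 128 and 149.7 CPM in Tomato. Here every GFP library was lower, with a log2 fold change of -0.76 ± 0.18 (SE, adjusted p = 0.0183). The Nkd1 call did not hold without either of GFP replicates 1 and 2 or without Tomato replicate 2, where the adjusted p reached 0.0668. Per kilobase, the Nkd1 level was 0.495, 0.616 and 0.567 times the Nkd2 level in GFP, and 1.47, 1.997 and 2.66 times in Tomato. So Nkd2 was the higher of this pair in every GFP library and Nkd1 in every Tomato library. The ratio, chosen after the values were seen, was given no test.

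The remaining genes of this group, Axin2, Lef1, Tcf7 and Apcdd1, did not pass. Axin2, a feedback scaffold that is switched on by beta-catenin in most tissues, had 7.70, 7.40 and 7.72 CPM in GFP, against 7.30, 6.66 and 6.13 CPM in Tomato. Every GFP library was slightly higher, by a log2 fold change of 0.18 ± 0.13 (SE, adjusted p = 0.31). Lef1, a transcription factor gene of the pathway and also its target, had 1.80, 1.67 and 3.75 CPM in GFP, against 0.816, 1.11 and 1.52 CPM in Tomato. The GFP libraries were all higher and their spread was wide, with replicate 3 well above the others. Lef1 did not pass (1.07, adjusted p = 0.0604), but it did with the block (1.03, adjusted p = 0.00884), by DESeq2 (1.07, adjusted p = 0.0317) and without a filter (1.06, 0.0292). An antisense gene shares 13.7% of its exon bases.

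Tcf7, a second transcription factor gene of that family, had 5.35, 6.98 and 11.8 CPM in GFP, against 7.46, 12.1 and 14.6 CPM in Tomato. In each fraction the library numbered 3 was the highest, and within each pair GFP was the lower. It did not pass (-0.50, adjusted p = 0.296) and passed as lower with the block (-0.52, adjusted p = 0.012). Apcdd1, which encodes a membrane inhibitor of Wnt, had 13.5, 12.5 and 13.8 CPM in GFP, against 16.2, 13.9 and 12.8 CPM in Tomato, and overlapped (-0.11, adjusted p = 0.53). It passed as lower with the length and composition offsets (-0.36, adjusted p = 0.0366; 0.0284 with the block as well).

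Genes that work with these components were read from a list of 79 further pathway genes, of which 66 were tested. In GFP 24 of them were higher and 5 lower, with a median log2 fold change of 0.32. That is 36.4% and 7.58%, beside 13.1% and 15.7% of all genes tested. The count of higher genes was 14 when scaled by library totals alone, 14 with the length and composition offsets, 26 with those offsets and the block, and 10 without GFP replicate 1 or without Tomato replicate 2. It was 15 without GFP replicate 2 and 13 without GFP replicate 3. Over all genes, 2049 were higher in the main fit, 1130 by library totals alone and 1526 with the length and composition offsets. With those offsets and the block 2566 were higher. Without GFP replicate 1 the count over all genes was 920, without Tomato replicate 2 833, without GFP replicate 2 1409 and without GFP replicate 3 1195. Of 20 genes of the destruction complex and Dishevelled 7 were higher and none lower, and of 12 nuclear partners 5 were higher and none lower. Of 11 surface and secreted modulators tested 7 were higher and 1 lower, and of 12 planar polarity genes 4 were higher and 1 lower. Of 10 other reported targets 1 was higher and 3 lower, and the 1 further ligand gene tested of 8 did not pass. Ctnnb1, which encodes beta-catenin, averaged 337 ± 36.9 CPM in GFP, against 305 ± 3.31 CPM in Tomato (SD, n = 3), and did not pass (0.14, adjusted p = 0.314).

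The higher genes of this list with the smallest adjusted p were Dact3, Ptk7, Dvl3 and Trabd2b. Dact3, a gene for a Dishevelled-binding protein, averaged 58.2 ± 4.27 CPM in GFP, against 37.9 ± 4.88 CPM in Tomato (0.62, adjusted p = 0.0062 for the log2 fold change). Ptk7, a planar polarity receptor gene, averaged 202 ± 19.3 CPM in GFP, against 128 ± 17.4 CPM in Tomato (0.65, adjusted p = 0.00656). Dvl3, a Dishevelled gene, averaged 29.1 ± 4.80 CPM in GFP, against 15.8 ± 2.99 CPM in Tomato (0.88, adjusted p = 0.00717), and Trabd2b, whose product cleaves Wnt, averaged 49.9 ± 9.35 CPM in GFP, against 28.5 ± 4.61 CPM in Tomato (0.81, adjusted p = 0.00884). The lower genes with the smallest adjusted p were Sp5, Celsr2, Lypd6 and Ccnd1. Sp5, a transcription factor gene that beta-catenin switches on directly in embryos, was counted at 1, 0 and 3 reads in GFP and 34, 37 and 32 reads in Tomato (adjusted p = 0.00129). Summed over libraries, its 4 reads in GFP and 103 in Tomato gave a ratio, scaled for library size, of 0.0387, with an exact 95% interval of 0.0104 to 0.102 that covers counting error only. Celsr2, a cadherin gene of planar polarity, was counted at 4, 3 and 4 reads in GFP and 26, 22 and 14 reads in Tomato (-2.29, adjusted p = 0.00495). Lypd6, a gene for a membrane partner of Lrp6, was counted at 6, 6 and 15 reads in GFP and 27, 27 and 49 reads in Tomato (-1.78, adjusted p = 0.0259). Sp5, Celsr2 and Lypd6 owed their place in the test to the Tomato libraries, where they were higher. Ccnd1, the cyclin D1 gene, averaged 4.29 ± 0.821 CPM in GFP, against 6.95 ± 1.15 CPM in Tomato (-0.69, adjusted p = 0.029). The Lypd6 call was lost in 4 of the 6 fits without a single library, as was that of Ccnd1. Both were lost without GFP replicate 1, Tomato replicate 2 or Tomato replicate 3, Lypd6 also without GFP replicate 2 and Ccnd1 also without GFP replicate 3. On a single strand column the Lypd6 call was lost too (-1.81, adjusted p = 0.0576 by edgeR).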

How the data were processed

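RNA of Podoplanin-sorted cells was sequenced in 6 libraries (3 GFP and 3 Tomato), grouped and numbered by their titles. An Illumina TruSeq RNA kit was used, per the labels' protocols. What the authors deposited are unnormalised counts for each gene, in 1 column without regard to strand and 1 for each strand, per the file headers. Trim Galore 0.4.3, STAR 2.5.2b and build GRCm38 are named, with no roles, per the submitters' processing notes. The annotation release is not given in the sources used here.

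Counts without regard to strand were used, as the strand columns held nearly equal totals (ratio 1.002 to 1.006), so antisense reads cannot be told apart. Of the 53 genes 10 share exon bases with another gene and are uncertain to that extent (Wnt5a, Wnt7b, Wnt11, Fzd5, Fzd6, Sfrp2, Notum, Rspo3, Axin2 and Lef1). Names, positions (1-based) and exon lengths came from GENCODE M21 on GRCm38, which matched 49412 of 49671 genes by identifier. The 259 others held 0.00762% of counts.

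GFP was compared with Tomato by edgeR 4.0.16 in R 4.3.3 (quasi-likelihood F test, two-sided, robust, TMM, filterByExpr, no block), with Benjamini-Hochberg adjustment over 15608 genes and a threshold of 0.05. SE were derived from the fold change and F. The fit was also run on simulated data with the same relative spread for every gene and no pairs of libraries. That run does not show how the fit performs on the paired spread of these libraries. Depth gives small errors for abundant genes, while a gene under 1 CPM rests on few reads. Alternatives used RLE, upper quartile or library size scaling, no filter, at least 1 CPM in 3 libraries, DESeq2 1.42.0, limma-voom (limma 3.58.1) and no robustness. They also used the replicate block, and offsets for merged exon length and the GC content of the longest transcript (splines with 4 degrees of freedom). The last were a single strand column, a threshold of 0.01, and leaving out each library.

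No label says that the replicates are separate mice, and the p-values then measure only the spread between these libraries, which may be technical. No pair of replicates was a repeat of 1 library (chi-square over its degrees of freedom 27.8 to 120). The deviations of libraries with equal numbers from their fraction's mean correlated at 0.463, 0.182 and 0.405, and those with different numbers at -0.442 to -0.0139. Deviations cancel out within a fraction, so the values at different numbers are not independent of those at equal numbers. Because of the values at equal numbers, the numbers were used as pairs in the fits with the block, which no label states. The main test took no account of pairs, so calls and adjusted p are unpaired unless the block is named. The members and lists were chosen with earlier results of these data known. Of the members, 44 with a mean of at least 1 CPM in either fraction are given library by library. Of the further list, the 4 higher and 4 lower genes with the smallest adjusted p are named. Ctnnb1 was named after its values were seen.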

Additional observations from a re-analysis of the deposited data

How the results depend on the processing

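Of the 14 Wnt calls, 8 were lost without 1 library or under another scaling or tool, as given beside each gene, and 6 were not. Counts here are of genes higher and lower in GFP at an adjusted p under 0.05 by the edgeR quasi-likelihood test, 10 and 4 for the Wnt genes, 24 and 5 for the further pathway genes, and 2049 and 2456 for all genes. With the replicate block they were 17 and 5, 34 and 5, and 3137 and 3256, and all 14 Wnt calls were kept. With length and GC offsets they were 10 and 6, 14 and 4, and 1526 and 2124, and with those offsets and the block 18 and 6, 26 and 5, and 2566 and 2950. With library size as the only scaling they were 6 and 6, 14 and 6, and 1130 and 3851, so 22.7% of all calls were higher where TMM gave 45.5%. At a threshold of 0.01 they were 3 and 1, 5 and 2, and 578 and 1083, or 34.8% higher. Lower calls among the further genes numbered 2 with a filter of 1 CPM in 3 libraries and 3 on a single strand column. Without 1 library each, the Wnt counts ranged from 6 to 13 higher and from 1 to 3 lower, the further genes from 10 to 27 and from 2 to 4, and all genes from 833 to 2392 and from 1380 to 2793. The lowest Wnt counts came without GFP replicate 3 or Tomato replicate 2 (6 higher each), and without either of GFP replicates 1 and 2 or without Tomato replicate 2 (1 lower each). Fewer samples entered those fits, while the highest Wnt count, 13 higher, came without Tomato replicate 1. The cause of these shifts and of those under other settings was not tested.

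Log2 fold changes that turned their sign belonged to genes that did not pass. With library size as the only scaling Wnt4 was at -0.085 and Wls at -0.11, and Wls was at -0.10 with length and GC offsets, with or without the block. Notum was at 0.0037 by limma-voom and at 0.34 on a single strand column. Without 1 library each, the range was -0.053 (without Tomato replicate 1) to 0.20 for Wnt4, -0.025 (without Tomato replicate 3) to 0.084 for Wls, -0.055 (without Tomato replicate 3) to 0.53 for Fzd10, -0.60 (without GFP replicate 3) to 1.58 for Sfrp5 and -0.22 (without GFP replicate 3) to 0.67 for Frzb. It was -0.52 to 0.24 (without Tomato replicate 3) for Notum, -0.67 to 0.062 (without Tomato replicate 3) for Lgr6, and -0.092 to 0.049 (without Tomato replicate 2; 0.014 without GFP replicate 1) for Znrf3. Genes under 1 CPM, such as Wnt10b and Rnf43, rest on few reads, which limits what their folds can show.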
